A study of Mus musculus with 14 samples.

Results

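The genes described here are 30 enzymes, carriers and regulators of mitochondrial and peroxisomal fatty acid oxidation, taken by symbol from a table of 24421 genes. All 30 were found, and all 30 were among the 14854 genes with enough counts to be tested. They were measured by sequencing messenger RNA from whole kidneys of male C57BL/6J mice given vehicle, Dps or MnDps. The dose of each agent, a protein nanocage per the series title, was 18 mg/kg by intravenous injection. Tissue was collected after 4 h or 24 h. The groups hold 3 libraries for the vehicle control, 3 each for Dps at 4 h, MnDps at 4 h and Dps at 24 h, and 2 for MnDps at 24 h. The labels give the controls no time point, give no age, and neither spell out the agents' names nor say how they differ. They also do not say that each library came from its own animal, so each p-value reflects how far these libraries scatter.

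Fatty acids are burned in the kidney's proximal tubule to fuel the transport of salt and solutes. A fatty acid is joined to coenzyme A, handed across the mitochondrial membranes on carnitine, and then shortened in a cycle of dehydrogenation, hydration, a further dehydrogenation and thiolysis. Very long and branched chains are shortened in peroxisomes and passed on to mitochondria. PPAR alpha, the product of Ppara, is the nuclear receptor that binds fatty acids and, paired with RXR, switches on many of these genes. It is known to bind direct repeats of the hexamer AGGTCA.

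The promoters of 5 members are shown, because their transcripts mark the main patterns. Ehhadh, Crot and Etfdh were below control with both agents at 24 h. Cpt1a was lower with Dps at 24 h and with MnDps at 4 h. Hadha was called in none of the 8 comparisons of 2 groups. Each line gives the 250 bases before the RefSeq transcript start, 5′ to 3′ on the gene's strand, from GRCm38.p6. Capitals mark a match to AGGTCA on either strand.
Ehhadh, chr16:21787835-21788084, minus strand: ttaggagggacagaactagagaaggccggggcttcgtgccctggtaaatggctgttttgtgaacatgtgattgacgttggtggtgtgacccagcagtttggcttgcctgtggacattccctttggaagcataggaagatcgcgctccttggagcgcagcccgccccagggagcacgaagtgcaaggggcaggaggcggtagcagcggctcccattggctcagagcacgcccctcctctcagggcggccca
Crot, chr5:8997147-8997396, minus strand: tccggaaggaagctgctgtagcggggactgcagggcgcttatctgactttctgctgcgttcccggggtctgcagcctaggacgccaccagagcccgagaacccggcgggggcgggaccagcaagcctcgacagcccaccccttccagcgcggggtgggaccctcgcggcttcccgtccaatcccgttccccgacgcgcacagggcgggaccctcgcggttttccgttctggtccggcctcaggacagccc
Etfdh, chr3:79628768-79629017, minus strand: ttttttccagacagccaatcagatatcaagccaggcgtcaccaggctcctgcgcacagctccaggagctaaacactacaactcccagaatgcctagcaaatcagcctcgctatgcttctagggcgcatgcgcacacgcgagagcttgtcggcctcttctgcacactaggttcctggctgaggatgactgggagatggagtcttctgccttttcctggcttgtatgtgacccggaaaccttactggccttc
Cpt1a, chr19:3323051-3323300, plus strand: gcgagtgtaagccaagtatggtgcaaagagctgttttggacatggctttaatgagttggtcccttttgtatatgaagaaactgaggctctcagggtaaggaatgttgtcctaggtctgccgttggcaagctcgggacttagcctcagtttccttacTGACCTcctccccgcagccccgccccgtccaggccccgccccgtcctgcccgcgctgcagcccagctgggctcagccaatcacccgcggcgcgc
Hadha, chr5:30154981-30155230, minus strand: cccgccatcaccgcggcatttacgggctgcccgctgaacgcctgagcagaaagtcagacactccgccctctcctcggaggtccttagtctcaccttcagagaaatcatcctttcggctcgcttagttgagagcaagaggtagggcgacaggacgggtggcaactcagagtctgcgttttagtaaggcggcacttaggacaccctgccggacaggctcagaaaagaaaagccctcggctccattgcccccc
Of these 5, Cpt1a alone holds the hexamer, read on its opposite strand. RefSeq windows that run from 250 bases before to 50 after the start were given for 25 of the 30 members, in 26 windows. Acaa2, Hsd17b4, Decr1, Crat and Vnn1 had no entry. The hexamer AGGTCA, searched on both strands, was in 4 of the 26 windows (15.4%), those of Acadm, Acadvl, Cpt1a and Echs1, and in 16.3% of all 32851 windows. A direct repeat of it spaced by 1 base, which contains the hexamer, was in 0 member windows and in 0.0396% of all windows. An exact repeat this rare, in 13 of 32851 windows, cannot tell 26 member windows from the rest. Inexact repeats, and bases outside the windows, were not searched. The median GC content was 60.7% in member windows and 52.7% in all windows, and the median number of CpG dinucleotides was 17 against 7. Hadha and Hadhb, the 2 subunits of the trifunctional protein, are transcribed away from each other on chromosome 5, with RefSeq starts 273 bases apart. Of the 5 stretches printed, those of Etfdh and Cpt1a lie wholly inside the longer GENCODE M21 gene models, and those of Crot and Hadha partly.

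Library totals ran from 15097093 to 42074942 counts, and 3 libraries exceeded 30000000. These were Dps 4 h replicates 1 and 2 and control replicate 3, so depth is partly tied to the Dps 4 h group. Proximal tubule markers were abundant in every group: Slc34a1, a phosphate transporter, stood at 6548 ± 231 CPM (SD, n = 3) in the controls. CPM are counts relative to the scaled size of the library. Over all genes, the log2 fold change followed transcript length in several comparisons, as shown by Spearman coefficients across 14765 genes. Against control they were -0.49 for MnDps at 4 h, -0.53 for Dps at 24 h and -0.36 for MnDps at 24 h, against 0.19 for Dps at 4 h. The trend was strongest for MnDps against Dps at 4 h, at -0.66, and for the interaction of agent and time, at 0.62. From 4 h to 24 h the coefficient was -0.46 with Dps and 0.30 with MnDps. It was 0.22 for MnDps against Dps at 24 h. Genes are not independent replicates, so no test is given. Each comparison was therefore also fitted with a correction for transcript length and GC content, named below as the correction. What produces those trends was not tested.

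Markers of other cells also moved between groups. For scale, 8.33% of all genes were called higher and 6.27% lower with Dps at 4 h against control. The shares were 22.9% and 22.7% with MnDps at 4 h, 9.64% and 10.4% with Dps at 24 h, and 4.93% and 8.39% with MnDps at 24 h. In the same order, the corrected shares were 8.29% and 17.6%, 15.6% and 22.0%, 3.72% and 4.61%, and 2.05% and 5.24%. The summed level of 8 adipocyte markers was 47.0 to 113 CPM in the controls, 212 to 260 with Dps and 145 to 274 with MnDps at 4 h, 132 to 245 with Dps and 63.0 to 188 with MnDps at 24 h. In each 4 h group 3 of the 8 rose against control, and with the correction 6 rose with Dps and 0 with MnDps. The 5 endothelial markers summed to 296 to 340 CPM in the controls and to 160 to 222 in the 4 h libraries, with 4 of 5 lower in each 4 h group. The 5 macrophage markers summed to 107 to 128 CPM in the controls and to 153 to 168 at 24 h, with 4 higher for Dps and 3 for MnDps, and 2 and 1 with the correction. The 3 neutrophil markers in the table summed to 0.0538 to 0.165 CPM in the controls, 2.66 to 4.15 with Dps and 7.3 to 14 with MnDps at 4 h, where both tested markers rose with each agent. At 24 h they summed to 0.490 to 0.534 CPM with Dps and 0.205 to 0.567 with MnDps, and Cxcr2 was at 0 in both MnDps libraries. The 5 collecting duct markers summed to 376 to 507 CPM in the controls, 684 to 764 with Dps and 669 to 845 with MnDps at 24 h, with 3 and 2 of them higher. In MnDps at 4 h, 7 of 10 proximal tubule markers fell and 1 rose, or 5 and 0 with the correction. Their sum was higher there, at 56359 to 68974 CPM against 50733 to 53300 in the controls. Most of that sum is Kap, with a mean of 37959 CPM in the controls and 51920 with MnDps at 4 h. Slc34a1 and Lrp2 were lower there, with means of 5029 against 6548 CPM and 1814 against 2551 CPM. The part of these shifts in the values below was not tested, and in whole kidney fewer cells of a type and less RNA per cell cannot be told apart.

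The members are strongly expressed. Counts of a member in a library ran from 362 to 54894. Per kb of transcript, the median member stood at the 95.7th percentile of tested genes in the controls, and the lowest at the 67.6th. Acadm, the medium-chain acyl-CoA dehydrogenase, was highest at 640 ± 53.2 CPM per kb (SD, n = 3), followed by Etfb at 522 ± 80.2 and Ech1 at 430 ± 38.2. Etfb and Ech1 overlapped in their spread. Pex11a, a factor in peroxisome division, was lowest at 13.2 ± 0.605 CPM per kb. Together the 30 genes took 1.05% to 1.11% of all counts in the controls and the same 1.05% to 1.11% with Dps at 4 h. They took 1.12% to 1.25% with MnDps at 4 h, 0.951% to 0.993% with Dps at 24 h and 1.01% to 1.07% with MnDps at 24 h. By this share of raw counts, the MnDps 4 h libraries lay above the controls and the Dps 24 h libraries below them, without overlap. In CPM of the scaled libraries, the 30 genes summed to 10396 to 11225 in the controls. Their sums were 10238 to 11008 with Dps and 11997 to 12882 with MnDps at 4 h. At 24 h they were 9432 to 10160 with Dps and 9788 to 10226 with MnDps, so libraries of both agents then lay below the controls.

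**Figure D1:**
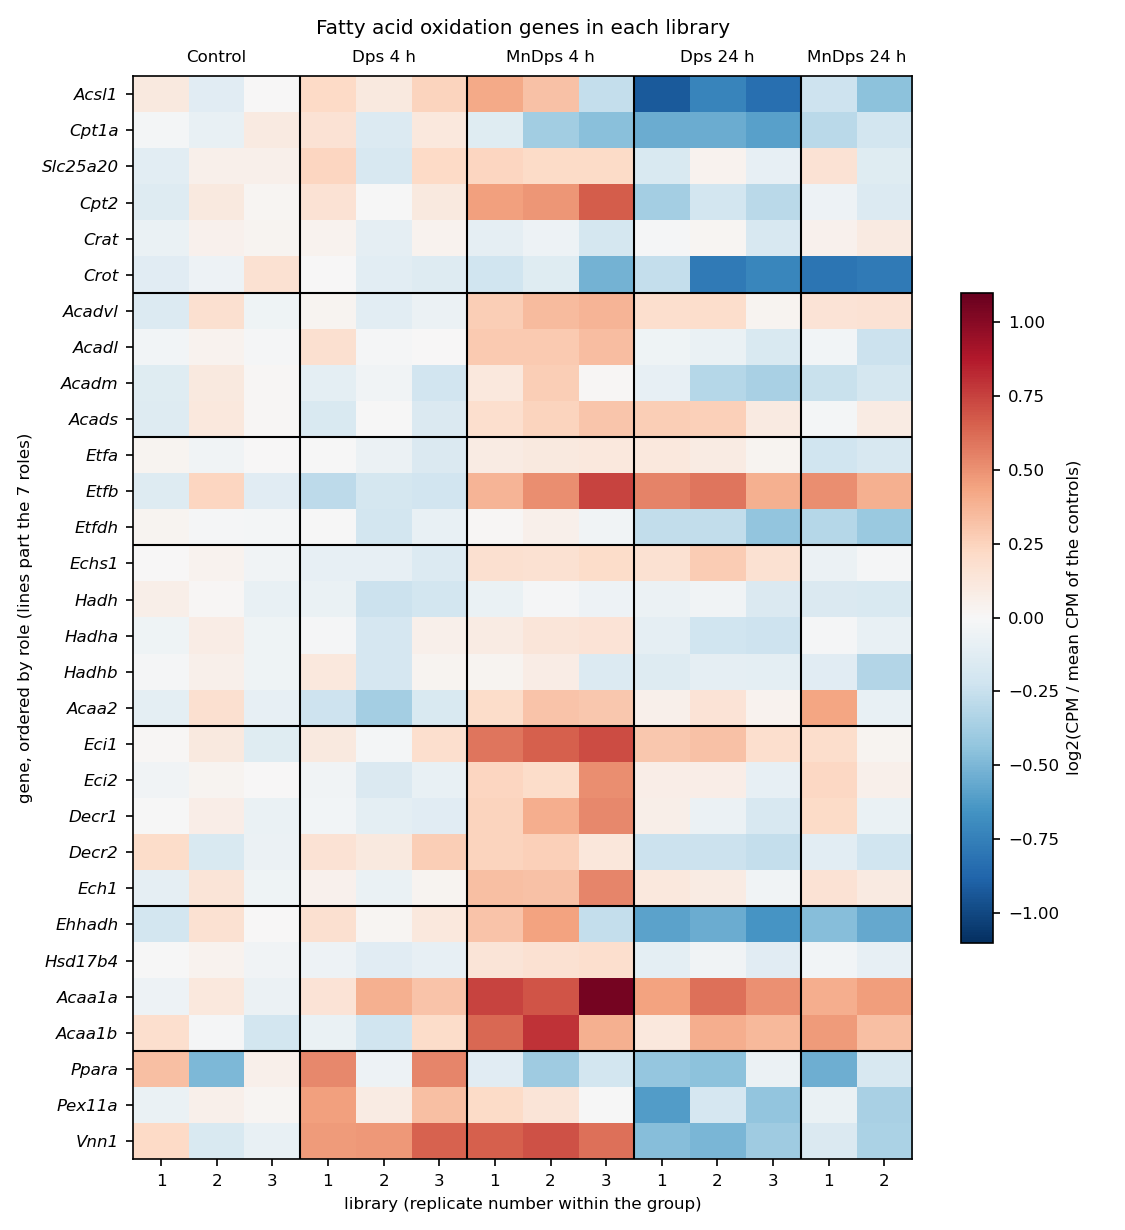
Level of each of the 30 genes (vertical axis, ordered by role, with lines between the 7 roles) in each of the 14 libraries (horizontal axis, grouped by treatment), coloured by log2 of CPM over the mean of the controls. Most genes stay near control with Dps at 4 h, with exceptions such as Vnn1 in all 3 libraries, Ppara in replicates 1 and 3 and Pex11a in replicate 1. Acaa1a, Eci1 and Vnn1 are red in the 3 MnDps libraries at 4 h, and Acsl1, Crot and Ehhadh are blue in the 3 Dps libraries at 24 h.

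With Dps at 4 h, 1 member changed. Vnn1 rose, and the other 29 did not pass the test (edgeR's quasi-likelihood F-test, Benjamini-Hochberg adjustment over all tested genes, called at an adjusted p under 0.05). The 1 higher and 0 lower calls stand beside 8.33% of all genes called higher and 6.27% called lower. An unadjusted p under 0.05 was reached by 6 members, and the share of all genes at that threshold was not counted. DESeq2 and limma voom each called 2 members. Over all genes DESeq2 called 1316 higher and 1133 lower, and limma voom 1330 and 1162. The median member log2 fold change was -0.01, against -0.02 over all genes. With the correction, Vnn1 and Acaa1a were called higher and Etfb, Hadh and Hsd17b4 lower, beside 8.29% and 17.6% of all genes.

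With MnDps at 4 h, members of every role were higher. Against control, 14 rose and only Cpt1a fell, beside 22.9% of all genes called higher and 22.7% lower. The median was 0.21, against 0.00 over all genes. With the correction, 5 of the 14 were still called higher (Cpt2, Eci1, Decr1, Acaa1a and Vnn1), beside 15.6% of all genes. The corrected median was -0.02, against -0.05 over all genes. The 9 that lost the call had a median transcript length of 1746 bases, and the 5 that kept it 2372 bases. Called lower with the correction were Cpt1a, Etfa and Hadh, beside 22.0% of all genes.

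At 24 h with Dps, 8 members fell and 4 rose against control, beside 10.4% of all genes called lower and 9.64% higher. The 8 were Acsl1, Cpt1a, Cpt2 and Crot of the activation and carnitine steps, Etfdh, Ehhadh, Pex11a and Vnn1. They had transcripts of 2241 to 4317 bases, and the 4 that rose (Etfb, Echs1, Eci1 and Acaa1a) had transcripts of 893 to 1762. All 8 were lower with the correction too, joined by Acadm, Hadh, Decr2 and Ech1, which made 12 of 30 beside 4.61% of all genes. Acaa1a was then the only member called higher, beside 3.72%. The count of 12 calls dropped to 7 without control replicate 3, when 2 were higher and 5 lower. Over all genes, 1432 higher and 1547 lower calls dropped to 398 and 445 in that fit. The member count dropped to 8 when the 3 deepest libraries received a term of their own (the depth term). That term ended the calls of Cpt2, Pex11a, Echs1 and Eci1. With it, 797 of all genes were called higher and 840 lower.

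MnDps at 24 h rests on 2 libraries. Against control 3 members fell (Crot, Etfdh and Ehhadh) and 2 rose (Etfb and Acaa1a), beside 8.39% of all genes called lower and 4.93% higher. With the correction, Crot and Etfdh were again lower, with Acads, Etfa and Hadh, beside 5.24%, and none was higher, beside 2.05%. The 5 calls became 0 without MnDps 24 h replicate 1, 1 without replicate 2, 3 without control replicate 1 and 2 without control replicate 3. Calls over all genes dropped too, from 732 higher and 1246 lower. They became 59 and 241 without MnDps 24 h replicate 1, and 249 and 360 without replicate 2. Without control replicate 1 they were 379 and 842, and without control replicate 3 they were 194 and 585. The depth term ended the calls of Etfb and Ehhadh, and with it 314 of all genes were called higher and 719 lower. DESeq2 called 7 members and limma voom 6. Over all genes DESeq2 called 955 higher and 1507 lower, and limma voom 1071 and 1596.

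**Figure D2:**
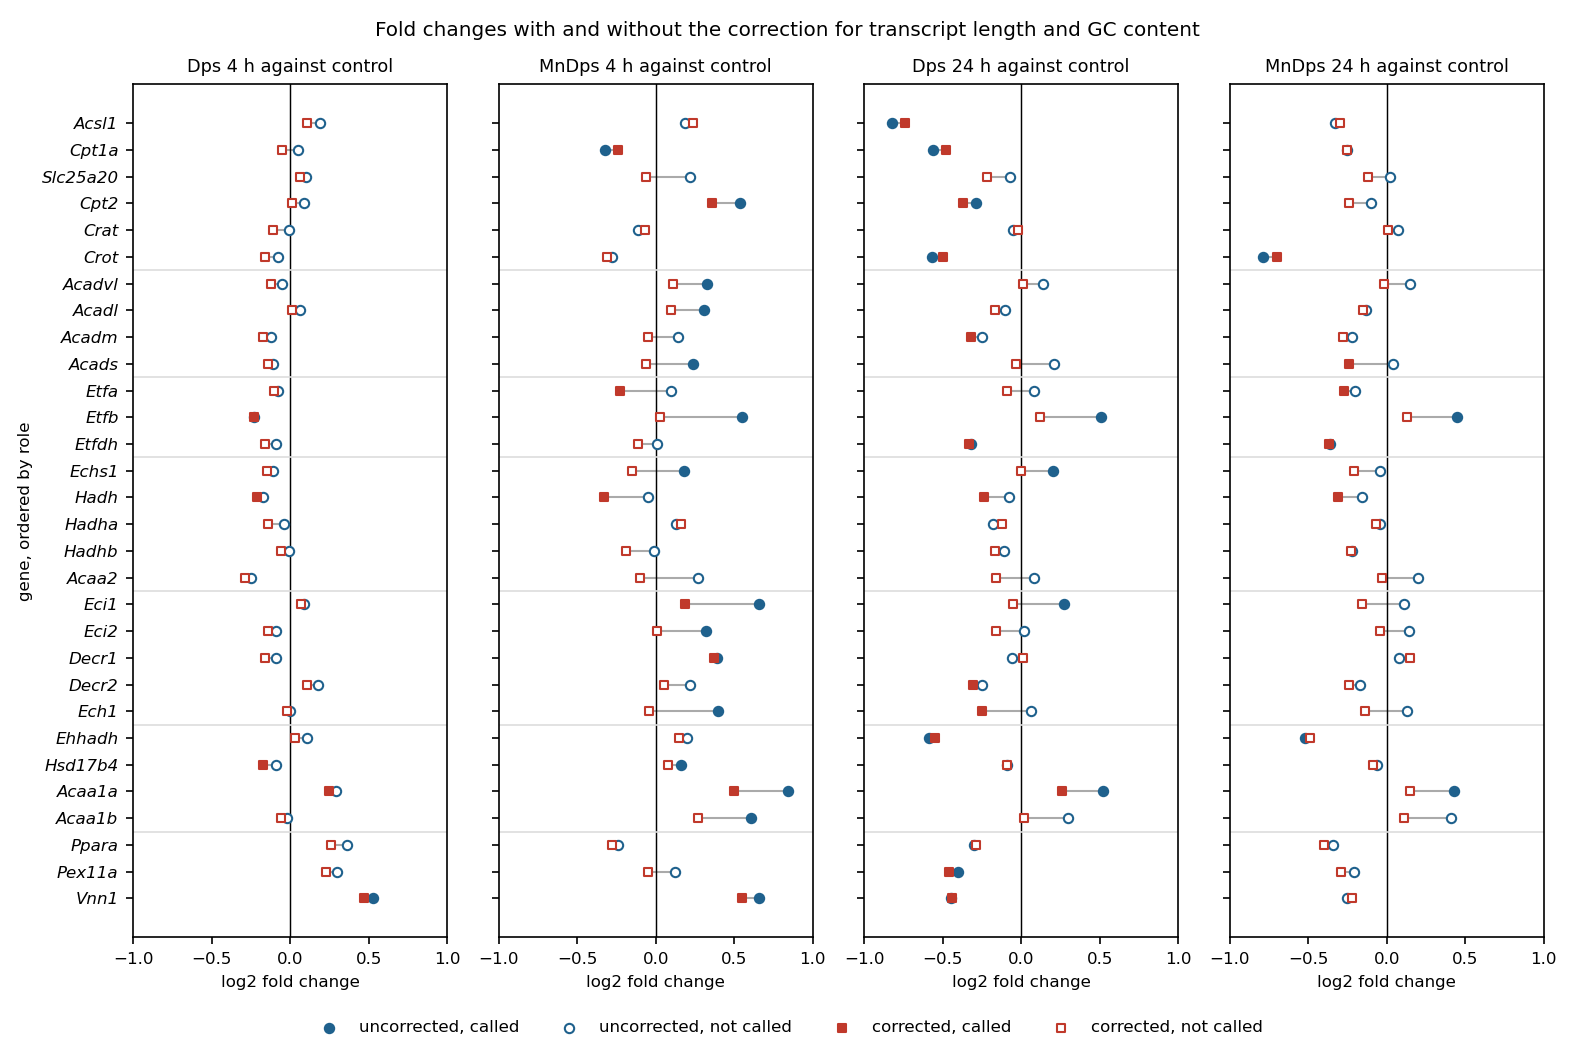
Log2 fold change against control of each member (vertical axis, ordered by role) in the 4 treated groups, without (blue circles) and with (red squares) the correction for transcript length and GC content; filled marks are called at an adjusted p under 0.05. In MnDps at 4 h most blue circles lie right of their red squares, such as Ech1 (0.40 and -0.04), while Acsl1 in Dps at 24 h stays at -0.82 and -0.74.

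Activation and the carnitine shuttle held the largest falls against control. Acsl1 makes acyl-CoA from long-chain fatty acids. Its level was 266, 227 and 249 CPM in the controls, 287, 267 and 293 with Dps at 4 h, 330, 309 and 206 with MnDps at 4 h, 130, 149 and 139 with Dps at 24 h, and 212 and 181 with MnDps at 24 h. All 3 Dps 24 h libraries lay below every other library, and MnDps 4 h replicate 3 lay apart from its 2 fellows. Against control, Acsl1 fell by 0.82 ± 0.13 (log2 fold change ± SE) with Dps at 24 h (adjusted p = 0.00239), a call kept in all 14 alternatives. With MnDps at 24 h the value was -0.33 ± 0.15 (adjusted p = 0.152).

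Cpt1a makes acylcarnitines at the outer mitochondrial membrane and is the rate-controlling step of entry. It stood at 583, 560 and 636 CPM in the controls, 662, 536 and 644 with Dps at 4 h, 541, 454 and 432 with MnDps at 4 h, 406, 405 and 393 with Dps at 24 h, and 484 and 516 with MnDps at 24 h. The MnDps 4 h, Dps 24 h and MnDps 24 h libraries all lay below the lowest control. Cpt1a fell by 0.32 ± 0.09 with MnDps at 4 h (adjusted p = 0.0118, not called without control replicate 3) and by 0.56 ± 0.09 with Dps at 24 h (adjusted p = 0.00239, kept in all 14 alternatives). It was 0.05 ± 0.09 with Dps at 4 h (adjusted p = 0.773), a sign that turned to -0.05 with the correction, and -0.25 ± 0.11 with MnDps at 24 h (adjusted p = 0.131).

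Cpt2 turns acylcarnitines back into acyl-CoA inside mitochondria, and it went the other way from Cpt1a in MnDps at 4 h. Its level was 229, 272 and 255 CPM in the controls, 283, 251 and 271 with Dps at 4 h, 345, 354 and 402 with MnDps at 4 h, 195, 220 and 206 with Dps at 24 h, and 243 and 227 with MnDps at 24 h. Every MnDps 4 h library was above every other library. Cpt2 rose by 0.54 ± 0.08 with MnDps at 4 h (adjusted p = 0.000144), also in all 14 alternatives. It fell by 0.29 ± 0.08 with Dps at 24 h (adjusted p = 0.0263), a call that ended when Dps 24 h replicate 1 or 3, or control replicate 2 or 3, was left out.

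Crot, which makes carnitine esters of the medium-chain products of peroxisomes, fell with both agents at 24 h. It was at 601, 631 and 736 CPM in the controls, 657, 606 and 596 with Dps at 4 h, 563, 598 and 457 with MnDps at 4 h, 547, 382 and 400 with Dps at 24 h, and 375 and 383 with MnDps at 24 h. Dps 24 h replicate 1 was near the control range and the other 24 h libraries were well under it. The change against control was -0.57 ± 0.13 with Dps (adjusted p = 0.00799, lost without control replicate 3) and -0.79 ± 0.15 with MnDps (adjusted p = 0.00386, lost without MnDps 24 h replicate 1). Slc25a20, the carnitine-acylcarnitine carrier, and Crat, which handles short acyl groups, were called in none of the 8 comparisons of 2 groups, with log2 fold changes of -0.20 to 0.22 and -0.11 to 0.19. As a sum, the 6 genes of this step held 1941 to 2159 CPM in the controls, 1386 to 1545 with Dps at 24 h and 1592 to 1607 with MnDps at 24 h.

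**Figure D3:**
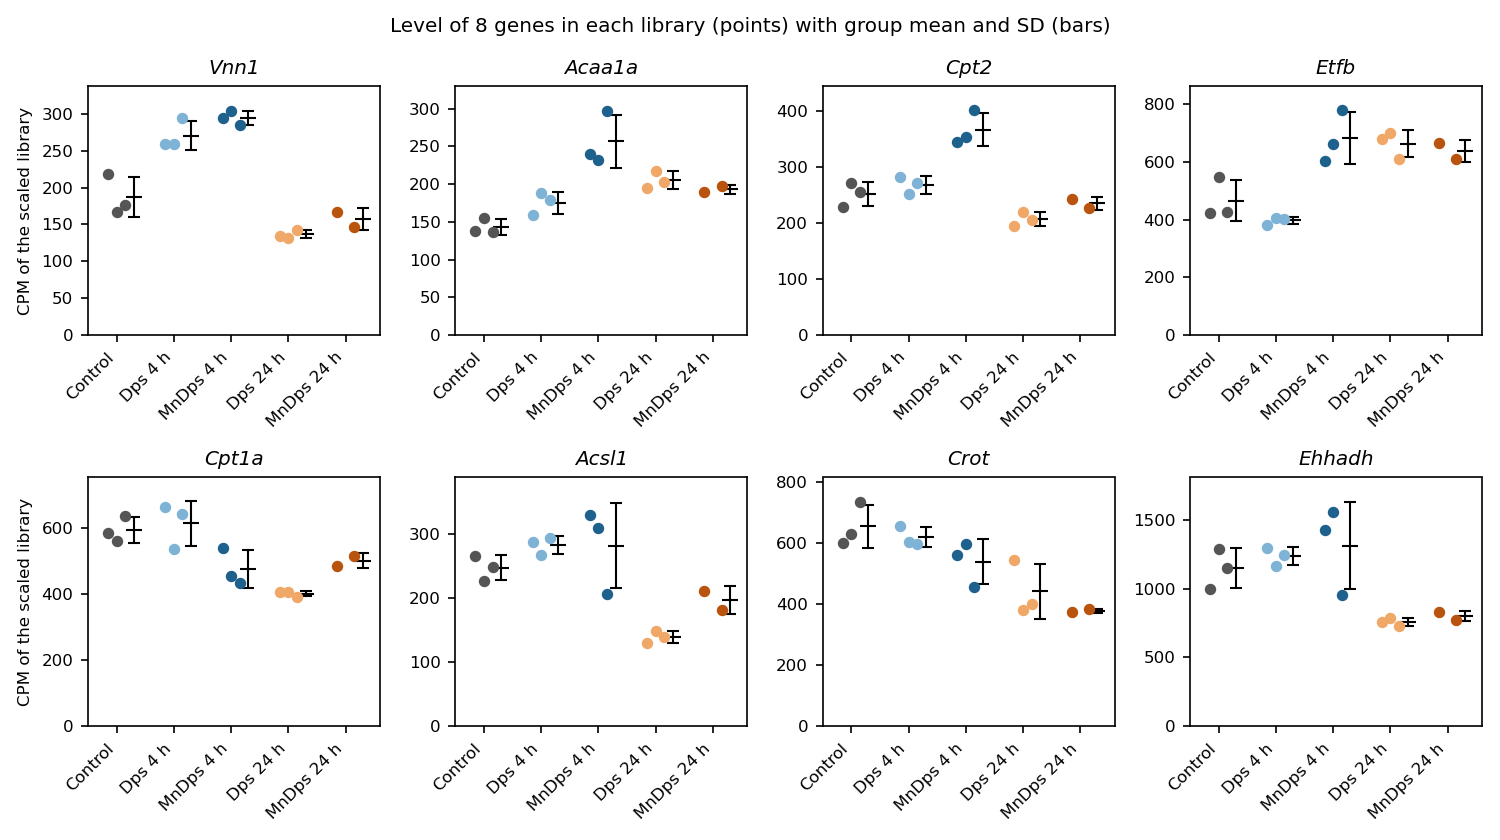
CPM of 8 genes (vertical axes, from 0) in each library (points) of the 5 groups (horizontal axes), with the group mean and SD as bars. Vnn1 is above control in both 4 h groups and below it in the 3 Dps libraries at 24 h (132 to 143 CPM), and Crot is lowest at 24 h, with 1 Dps library at 547 CPM.

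The 4 acyl-CoA dehydrogenases open each turn of the cycle at a given chain length. None was called against control with either agent at 24 h without the correction. In MnDps at 4 h, Acadvl (very long chains) rose by 0.33 ± 0.08 (adjusted p = 0.00424), Acadl (long chains) by 0.31 ± 0.07 (adjusted p = 0.00333) and Acads (short chains) by 0.24 ± 0.08 (adjusted p = 0.0231). The correction ended all 3 calls and took Acads to -0.06. Acads was also lost in a fit of only the groups compared and without MnDps 4 h replicate 2 or 3 or control replicate 1 or 3. Acadm was 0.14 there and -0.25 with Dps at 24 h (adjusted p = 0.228 and 0.0628). Of the exon bases of Acadvl, 42.9% overlap those of Dvl2 on the opposite strand. Dvl2 had a mean of 8.85 to 12.4 CPM per group, against 403 to 526 CPM for Acadvl.

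Electron transfer flavoprotein passes electrons from these dehydrogenases to Etfdh, which hands them to the respiratory chain. Its subunits did not move together. Etfb was at 422, 549 and 427 CPM in the controls, 382, 407 and 402 with Dps at 4 h, 603, 662 and 779 with MnDps at 4 h, 679, 701 and 609 with Dps at 24 h, and 665 and 610 with MnDps at 24 h. Etfb libraries of the last 3 groups all lay above the highest control. Etfb rose by 0.55 ± 0.11 with MnDps at 4 h (adjusted p = 0.000775), by 0.51 ± 0.11 with Dps at 24 h (adjusted p = 0.00609) and by 0.45 ± 0.12 with MnDps at 24 h (adjusted p = 0.0216). With the correction these values were 0.03, 0.12 and 0.13, none called. The last call was also lost without either MnDps 24 h library or without control replicate 1 or 3. Etfb has the shortest transcript of the 30, at 893 bases.

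Etfa, the partner subunit, stayed within 0.20 of control on the log2 scale in all 4 treated groups and was called in none. With the correction it was lower with MnDps at 4 h and at 24 h, at -0.23 and -0.27. Etfdh had a mean of 256 ± 4.90 CPM in the controls, 205 ± 13.0 with Dps at 24 h (SD, n = 3) and 199 ± 8.60 with MnDps at 24 h (SD, n = 2). It fell by 0.32 ± 0.07 with Dps at 24 h (adjusted p = 0.00782, kept in all 14 alternatives) and by 0.36 ± 0.08 with MnDps (adjusted p = 0.0107, lost without either MnDps 24 h library). Both falls were nearly the same size with the correction, -0.33 and -0.37.

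Of the 5 genes of mitochondrial hydration, dehydrogenation and thiolysis, Echs1 alone was called against control. Echs1, the short-chain enoyl-CoA hydratase, rose by 0.18 ± 0.06 with MnDps at 4 h (adjusted p = 0.0272) and by 0.20 ± 0.06 with Dps at 24 h (adjusted p = 0.0315). With the correction the values were -0.15 and 0.00, neither called. The depth term, no count filter and a fit of only the 2 groups ended both calls too. Each of the 6 libraries of MnDps at 4 h and control ended the call at 4 h when left out, and 5 of the 6 did so at 24 h, all but control replicate 2. Hadha and Hadhb, the long-chain hydratase-dehydrogenase and thiolase of the trifunctional protein, were called in none of the 8 comparisons of 2 groups, with log2 fold changes of -0.18 to 0.17 and -0.22 to -0.00. Hadh, the short-chain dehydrogenase, was called in none either, at -0.17 to 0.12, but was lower in all 4 comparisons against control with the correction. Acaa2, the mitochondrial thiolase, was at -0.25 to 0.27 against control.

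Of the 5 enzymes that rearrange double bonds of unsaturated fatty acids, 4 rose with MnDps at 4 h, beside the 22.9% of all genes called higher. With the correction 2 of the 5 were called (Eci1 and Decr1). The median of the 5 went from 0.39 to 0.05, against 0.00 and -0.05 over all genes. Eci1, an enoyl-CoA isomerase, was at 82.1, 87.5 and 74.1 CPM in the controls, 87.5, 80.2 and 92.1 with Dps at 4 h, 122, 128 and 134 with MnDps at 4 h, 100, 101 and 92.6 with Dps at 24 h, and 92.6 and 83.1 with MnDps at 24 h. The MnDps 4 h libraries lay above all others. Eci1 rose by 0.66 ± 0.08 there (adjusted p = 1.7e-05) and by 0.19 with the correction (adjusted p = 0.0471). Its rise with Dps at 24 h, 0.27 ± 0.08 (adjusted p = 0.0286), turned to -0.05 with the correction. Leaving out Dps 24 h replicate 1 or 2, or control replicate 1 or 3, ended that call as well.

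Decr1, the mitochondrial dienoyl-CoA reductase, rose by 0.39 ± 0.09 with MnDps at 4 h (adjusted p = 0.00264) and by 0.37 with the correction (adjusted p = 0.00522). Eci2 rose by 0.32 ± 0.09 (adjusted p = 0.00676) and Ech1 by 0.40 ± 0.08 (adjusted p = 0.0012), and with the correction these became 0.01 and -0.04, not called. Of the 75-base words of Eci2, 3.9% also occur in Eci3. Decr2, the peroxisomal reductase, was not called against control without the correction.

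Peroxisomal enzymes parted at 24 h. Ehhadh, which carries out hydration and dehydrogenation in peroxisomes, was at 999, 1289 and 1150 CPM in the controls, 1296, 1164 and 1242 with Dps at 4 h, 1425, 1555 and 956 with MnDps at 4 h, 761, 787 and 729 with Dps at 24 h, and 829 and 774 with MnDps at 24 h. All 5 libraries at 24 h were below every control, and MnDps 4 h replicate 3 was again apart from its fellows. Ehhadh fell by 0.59 ± 0.14 with Dps at 24 h (adjusted p = 0.00972), in all 14 alternatives. With MnDps at 24 h it fell by 0.52 ± 0.16 (adjusted p = 0.041), and was -0.49 with the correction, not called (adjusted p = 0.082). That call was also lost with no count filter, without either MnDps 24 h library and without control replicate 2 or 3. Hsd17b4, which carries out the same reactions on branched chains and bile acid precursors, rose by 0.16 ± 0.06 with MnDps at 4 h (adjusted p = 0.0377), a call lost with the correction, the depth term, no count filter or only the groups compared, and when any of the 6 libraries was left out.

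Of the 2 peroxisomal thiolases, Acaa1a rose at 24 h and Acaa1b was not called then. Acaa1a was at 138, 156 and 137 CPM in the controls, 159, 188 and 178 with Dps at 4 h, 240, 232 and 297 with MnDps at 4 h, 195, 218 and 203 with Dps at 24 h, and 189 and 197 with MnDps at 24 h. Every treated library was above every control, and the MnDps 4 h libraries were highest. Acaa1a rose by 0.84 ± 0.10 with MnDps at 4 h (adjusted p = 7.8e-06), by 0.52 ± 0.10 with Dps at 24 h (adjusted p = 0.00346) and by 0.43 ± 0.11 with MnDps at 24 h (adjusted p = 0.0172). The corrected values were 0.50, 0.26 and 0.15, of which 0.50 and 0.26 were called. Without either MnDps 24 h library, or without control replicate 1 or 3, the last call was lost too. With Dps at 4 h the value was 0.29 ± 0.10 (adjusted p = 0.0542).

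Acaa1b was at 443, 388 and 340 CPM in the controls, 371, 335 and 450 with Dps at 4 h, 603, 677 and 511 with MnDps at 4 h, 423, 515 and 500 with Dps at 24 h, and 542 and 492 with MnDps at 24 h. It rose by 0.61 ± 0.13 with MnDps at 4 h (adjusted p = 0.00129), and its corrected value of 0.27 was not called (adjusted p = 0.228). At 24 h its values were 0.30 ± 0.13 with Dps (adjusted p = 0.11) and 0.41 ± 0.14 with MnDps (adjusted p = 0.0681). Reads of the 2 thiolases are hard to part: 27.3% of the 75-base words of Acaa1a occur in Acaa1b and 28.5% of those of Acaa1b in Acaa1a. Exons of Acaa1a also share 290 bases with Myd88 on the opposite strand, 6.6% of its exon bases. Myd88, an adaptor of innate immune receptors, went from a mean of 19.5 CPM in the controls to 38.9 with Dps and 45.7 with MnDps at 4 h, and its log2 fold change with MnDps at 4 h was 1.23 ± 0.11 (adjusted p = 4.8e-07). The library kit keeps strand, per the labels' protocols, but no source used here says whether counting used it. Exons of Acaa1b share 224 bases, 11.4% of its exon bases, with Dlec1 on the opposite strand. Dlec1 had a mean of 63.5 CPM in the controls and 40.6 with MnDps at 4 h, and its log2 fold change was -0.64 ± 0.10 (adjusted p = 0.000104). The part of Myd88 reads in the Acaa1a values and of Dlec1 reads in the Acaa1b values was not tested.

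Ppara itself was not called against control in any group. Its level was 153, 86.6 and 127 CPM in the controls, 176, 117 and 177 with Dps at 4 h, 112, 93.0 and 106 with MnDps at 4 h, 91.1, 89.0 and 117 with Dps at 24 h, and 84.2 and 108 with MnDps at 24 h. The controls alone spanned most of that range. The values against control were 0.36 ± 0.21 with Dps and -0.24 ± 0.21 with MnDps at 4 h, and -0.30 ± 0.21 and -0.34 ± 0.24 at 24 h (adjusted p from 0.272 to 0.38). Pex11a fell by 0.40 ± 0.12 with Dps at 24 h (adjusted p = 0.0286), a call that ended when Dps 24 h replicate 1 or 3, or control replicate 3, was left out.

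Vnn1, a pantetheinase that releases the precursor of coenzyme A, was called in 5 of the 8 comparisons of 2 groups. It was at 218, 166 and 176 CPM in the controls, 259, 260 and 294 with Dps at 4 h, 294, 304 and 285 with MnDps at 4 h, 135, 132 and 143 with Dps at 24 h, and 167 and 146 with MnDps at 24 h. All 6 libraries at 4 h exceeded every control and all 3 Dps libraries at 24 h lay under every control. Vnn1 rose by 0.53 ± 0.09 with Dps (adjusted p = 0.000899) and by 0.66 ± 0.09 with MnDps (adjusted p = 7.2e-05) at 4 h, and fell by 0.45 ± 0.09 with Dps at 24 h (adjusted p = 0.00596). Each of the 3 calls was kept in all 14 alternatives. These comparisons share the control libraries.

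MnDps was then set against Dps at the same dose and time, over the 30 genes at 4 h and again at 24 h, with p-values adjusted over all tested genes. At 4 h, 16 members were higher with MnDps and 2 lower, beside 20.8% and 20.7% of all genes. The median was 0.21, against -0.01 over all genes. All 4 acyl-CoA dehydrogenases were higher, by 0.25 to 0.38. Etfb was higher by 0.78 ± 0.11 (adjusted p = 8.6e-05), Acaa1b by 0.63 ± 0.13 (adjusted p = 0.0011), Acaa1a by 0.55 ± 0.10 (adjusted p = 0.000341) and Cpt2 by 0.45 ± 0.08 (adjusted p = 0.000578). Cpt1a was lower, at -0.37 ± 0.09 (adjusted p = 0.00532), and so was Ppara, at -0.60 ± 0.21 (adjusted p = 0.0378). The Ppara call ended with the depth term, with no count filter and when any of the 6 libraries but Dps 4 h replicate 2 was left out. With the correction 7 were higher and 0 lower, beside 13.2% and 8.44% of all genes. Of the 16, Cpt2, Acadvl, Etfb, Decr1, Hsd17b4 and Acaa1a were called both ways, and Hadha was added.

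At 24 h, none of the 30 differed between MnDps and Dps, beside 0.148% of all genes called higher and 0.666% lower, and the correction gave 0 as well. An unadjusted p under 0.05 was reached by 4 (Acsl1, Cpt1a, Etfa and Echs1), and the share of all genes at that threshold was not counted. DESeq2, limma voom and a fit of only these 2 groups each called 3 members. Over all genes DESeq2 called 165 higher and 393 lower, limma voom 204 and 512, and the fit of 2 groups 231 and 496. The interval of 2 SE on either side of the log2 fold change ran from 0.19 to 0.79 for Acsl1 and from 0.12 to 0.52 for Cpt1a. It ran from -0.50 to 0.06 for Crot, from -0.20 to 0.12 for Etfdh, from -0.22 to 0.38 for Ehhadh and from -0.02 to 0.42 for Vnn1. Over all 30 genes these intervals reached from -0.52 to 0.79.

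From 4 h to 24 h, 7 members fell with both agents. These 2 comparisons use no library in common. With Dps 10 members were lower and 4 higher at 24 h, beside 22.6% and 22.0% of all genes. With MnDps 16 were lower and 0 higher, beside 11.7% and 10.1%. Lower with both were 7 members (Acsl1, Cpt2, Crot, Etfdh, Decr2, Ehhadh and Vnn1), which are 70.0% of the 10 and 43.8% of the 16. Over all genes, 807 were lower in both, 24.0% of 3356 for Dps and 46.4% of 1740 for MnDps. With the correction the counts were 10 lower and 1 higher for Dps, beside 14.1% and 23.5% of all genes, and 9 lower and 0 higher for MnDps, beside 11.1% and 9.88%. The overlap was again 7, with Acadl in place of Crot, which is 70.0% of the 10 and 77.8% of the 9. Over all genes the corrected overlap was 41.8% of those lower with Dps and 52.8% of those lower with MnDps.

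Vnn1 fell with both, at -0.99 ± 0.10 with Dps (adjusted p = 1.3e-06) and -0.91 ± 0.11 with MnDps (adjusted p = 2.6e-05). Acsl1 was at -1.01 ± 0.14 with Dps (adjusted p = 4.7e-05) and -0.52 ± 0.15 with MnDps (adjusted p = 0.0234, lost in a fit of these 2 groups alone and without MnDps 4 h replicate 1 or 2 or MnDps 24 h replicate 2). Ehhadh was at -0.70 ± 0.14 (adjusted p = 0.000899) and -0.71 ± 0.16 (adjusted p = 0.00506, lost without MnDps 24 h replicate 2). Pex11a was at -0.70 ± 0.12 with Dps (adjusted p = 0.000239) and Ppara at -0.66 ± 0.21 (adjusted p = 0.0223, lost with the correction, with the depth term and without Dps 4 h replicate 1 or 3 or Dps 24 h replicate 1 or 2). The MnDps count of 16 became 4 without MnDps 24 h replicate 2, 9 without MnDps 24 h replicate 1 or MnDps 4 h replicate 2, and 8 in a fit of these 2 groups alone. Over all genes, 1502 higher and 1740 lower calls became 621 and 715 without MnDps 24 h replicate 2, and 780 and 1057 without replicate 1. They became 1259 and 1481 without MnDps 4 h replicate 2, and 939 and 939 in the fit of 2 groups.

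**Figure D4:**
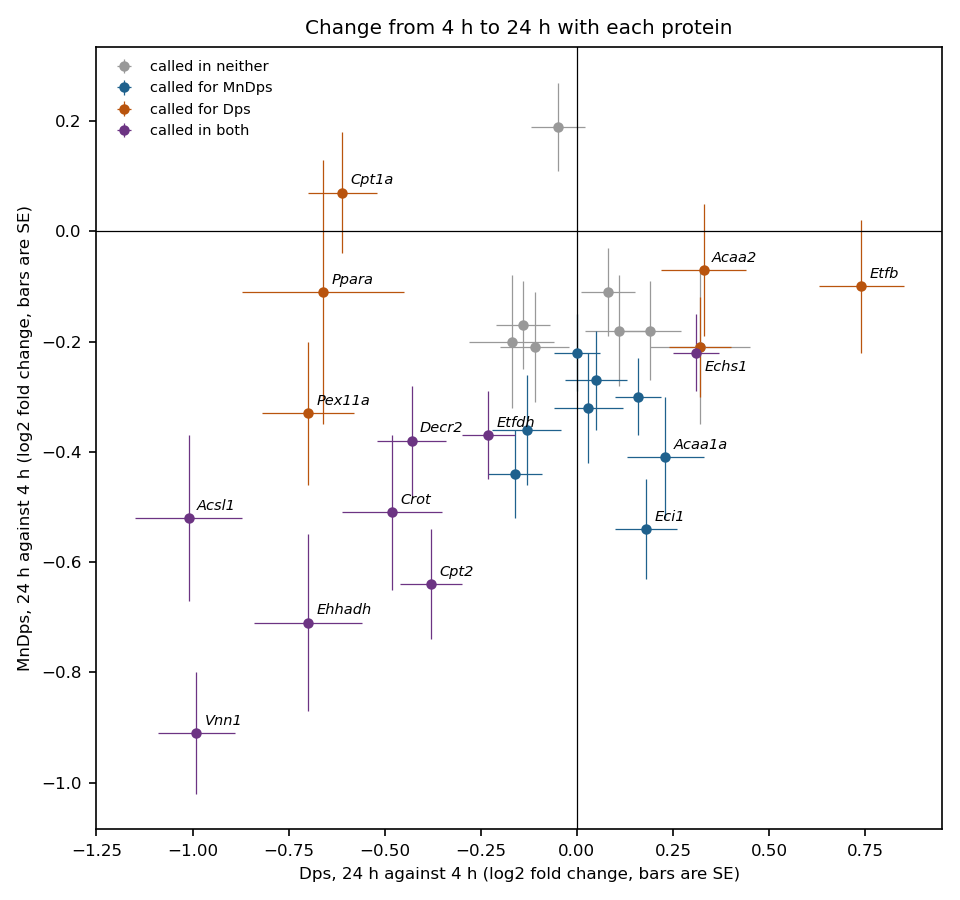
Log2 fold change from 4 h to 24 h with Dps (horizontal axis) and with MnDps (vertical axis) for the 30 genes, with SE bars, coloured by which comparison called them. Vnn1, Ehhadh and Acsl1 lie at the lower left, below 0 with both; Cpt1a lies at -0.61 with Dps and 0.07 with MnDps, and Etfb at 0.74 and -0.10.

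The change over time differed between the agents for 8 members by the interaction of agent and time. It was higher with MnDps for 1 and lower for 7, beside 13.7% and 15.7% of all genes, and with the correction for 1 and 3, beside 3.98% and 10.2%. Cpt1a, Acads and Acaa1a were called both ways. Cpt1a was lower at 24 h than at 4 h with Dps, at -0.61 ± 0.09 (adjusted p = 0.000114), and 0.07 ± 0.11 with MnDps (adjusted p = 0.653). The interaction was 0.69 ± 0.14 (adjusted p = 0.0022).

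Other genes of the pathway, from lists of neighbouring steps, moved unevenly. Of 16 tested genes of uptake, binding and activation, 3 rose and 4 fell with MnDps at 4 h, near the 22.9% and 22.7% of all genes called there. With the correction 5 rose and 4 fell, beside 15.6% and 22.0% of all genes. Dbi, the acyl-CoA binding protein, rose by 0.77 ± 0.10 (adjusted p = 2.7e-05) and by 0.27 with the correction (adjusted p = 0.00289). Cd36, a fatty acid uptake receptor, fell by 0.78 ± 0.17 (adjusted p = 0.00189). Cd36 also fell by 0.75 ± 0.19 with MnDps at 24 h (adjusted p = 0.0218), lost with the correction and without MnDps 24 h replicate 1 or control replicate 3. Of 21 genes of other mitochondrial steps, 4 rose and 5 fell with MnDps at 4 h, again near the uncorrected shares. With the correction 0 rose and 5 fell, beside the same 15.6% and 22.0%. Mut, the mutase that feeds products of odd-chain fatty acids into the citric acid cycle, was at 224 ± 20.7 CPM there against 298 ± 25.2 in the controls (SD, n = 3). It fell by 0.41 ± 0.09 (adjusted p = 0.00132), and its value was -0.50 ± 0.10 with MnDps at 24 h (adjusted p = 0.00523, lost without MnDps 24 h replicate 1).

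Of 30 other peroxisomal genes, 1 rose and 5 fell with Dps at 24 h, beside 9.64% and 10.4% of all genes. The numbers were the same with the correction, beside 3.72% and 4.61%. With MnDps at 24 h 0 rose and 7 fell, beside 4.93% and 8.39%, and 0 and 8 with the correction, beside 2.05% and 5.24%. Abcd3, a carrier of acyl groups into peroxisomes, fell by 0.37 ± 0.08 with Dps (adjusted p = 0.00585) and by 0.43 ± 0.09 with MnDps at 24 h (adjusted p = 0.00631, lost without MnDps 24 h replicate 2). Hacl1, which cleaves a carbon from branched fatty acids, rose by 0.39 ± 0.10 with MnDps at 4 h (adjusted p = 0.00594) and fell by 0.53 ± 0.10 with Dps at 24 h (adjusted p = 0.0044).

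Of 27 tested partners and other known targets of PPAR alpha, 6 rose and 5 fell with MnDps at 4 h, near the shares of all genes. With the correction 4 rose and 6 fell, beside 15.6% and 22.0% of all genes. Acot1, an acyl-CoA thioesterase, rose by 1.33 ± 0.16 (adjusted p = 3.3e-05) and Cyp4a14, a fatty acid hydroxylase, by 1.95 ± 0.61 (adjusted p = 0.025, lost with the depth term and without MnDps 4 h replicate 1 or 2 or control replicate 3). With Dps at 4 h 2 rose and 1 fell, beside 8.33% and 6.27% of all genes. The corrected counts were 1 and 3, beside 8.29% and 17.6%. With Dps at 24 h 1 rose and 8 fell, beside 9.64% and 10.4%, or 0 and 5 corrected, beside 3.72% and 4.61%. With MnDps at 24 h 1 rose and 3 fell, beside 4.93% and 8.39%, or 0 and 4 corrected, beside 2.05% and 5.24%. From 4 h to 24 h with Dps 3 rose and 14 fell, beside 22.0% and 22.6%. The corrected counts there were 3 and 10, beside 23.5% and 14.1%. Pdk4, which holds back glucose oxidation, was among them at -2.20 ± 0.63 (adjusted p = 0.0179), a call lost with the depth term, in a fit of only these 2 groups, and without Dps 4 h replicate 1 or Dps 24 h replicate 1 or 2. Klf15, a transcription factor of fasting metabolism, fell by 0.61 ± 0.09 with Dps at 4 h (adjusted p = 8.8e-05). With MnDps at 4 h its raw counts were 1683, 1978 and 1667, in libraries of 23410617, 26490966 and 22228392 counts. In the controls they were 2757, 2197 and 5317, in libraries of 18004289, 17589774 and 37135858 counts. Raw counts depend on these totals, and no test of Klf15 with MnDps at 4 h is given here.

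Clock genes also moved with time. Arntl, a core activator of the circadian clock, was at 4.14 to 6.71 CPM in the controls, 4.23 to 5.91 with Dps and 4.44 to 8.16 with MnDps at 4 h, 1.34 to 2.08 with Dps and 1.32 to 1.64 with MnDps at 24 h. It was lower at 24 h than in the controls, at -1.62 ± 0.27 with Dps (adjusted p = 0.00239) and -1.84 ± 0.32 with MnDps (adjusted p = 0.00279). The 17 clock genes summed to 1158 to 1422 CPM in the controls, 1245 to 1348 with Dps and 970 to 1128 with MnDps at 4 h. At 24 h they summed to 1389 to 1571 CPM with Dps and 1507 to 1540 with MnDps. Against control, 5 rose and 4 fell with Dps at 24 h, beside 9.64% and 10.4% of all genes. The corrected counts were 8 and 3, beside 3.72% and 4.61%. For MnDps at 24 h, 5 rose and 3 fell, beside 4.93% and 8.39%. The corrected counts were again 5 and 3, beside 2.05% and 5.24%. At 4 h against control, 2 rose and 0 fell with Dps, beside 8.33% and 6.27%, or 2 and 1 corrected, beside 8.29% and 17.6%. With MnDps 2 rose and 6 fell, beside 22.9% and 22.7%, or 2 and 4 corrected, beside 15.6% and 22.0%. In MnDps against Dps at 4 h, 0 were higher and 7 lower, beside 20.8% and 20.7%. The corrected counts there were 0 and 1, beside 13.2% and 8.44%. The labels give no hour of the day and the controls no time point, so time after injection and hour of collection cannot be told apart. The part of the hour in the members' values was not tested.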

How the data were processed

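Kidney messenger RNA was sequenced in 14 libraries of 5 groups, assigned from the labels, which number no replicates; numbers were given in series order. Per the labels' protocols, the kit was Illumina's stranded TruSeq mRNA kit and reads were paired. Per the submitters' processing notes, the authors aligned reads with STAR and counted them with featureCounts on mm10; their versions, annotation, strand and multiple-mapping settings are not stated in those notes or labels. The deposited values are raw counts per gene symbol, not normalised.

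Counts were filtered with edgeR's filterByExpr by group (14854 of 24421 genes kept), scaled by the trimmed mean of M-values and tested with the quasi-likelihood F-test of edgeR 4.0.16 (R 4.3.3) in 1 fit of 5 group means with 9 residual degrees of freedom. Benjamini-Hochberg adjustment ran over all tested genes of each comparison, and calls were made under 0.05. The SE is the log2 fold change divided by the square root of F. The test was checked on simulated counts. Replicate pairs differed by more than counting error (lowest chi-square per degree of freedom 8.1).

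The length and GC correction enters each library's spline trend of log2 CPM (5 degrees of freedom each) as an offset; lengths come from the longest protein-coding GENCODE M21 transcript, known for 99.4% of tested genes and all members. Other alternatives were median-of-ratios size factors, no filter, a minimum of 1 CPM, a term for libraries over 30000000 counts, DESeq2 1.42.0, voom with library weights in limma 3.58.1, only the groups compared, and leaving out each library.

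Library values are printed for members called against control with a log2 fold change past 0.5 in size, and for Ppara and Cpt1a; genes outside the members come from lists of pathway and marker genes, at most 3 per list and comparison. Some genes counted in those lists are not reported here by name. The members and lists were chosen with earlier results of these data known. Promoters come from RefSeq for GRCm38.p6.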

Additional observations from a re-analysis of the deposited data

Results flagged for a closer look

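The change from 4 h to 24 h differed between MnDps and Dps for 8 members, by the interaction of agent and time tested with edgeR's quasi-likelihood F-test and Benjamini-Hochberg adjustment. The log2 interaction was 0.69 for Cpt1a (adjusted p = 0.0022), which was lower at 24 h with Dps and not called with MnDps. It was negative for the other 7, at -0.37 for Acadvl, -0.53 for Acads, -0.46 for Etfa, -0.84 for Etfb, -0.53 for Echs1, -0.72 for Eci1 and -0.64 for Acaa1a. Etfb and Acads rose with time after Dps and were not called after MnDps. Eci1, Etfa and Acaa1a fell with time after MnDps and were not called after Dps, and Echs1 rose after Dps and fell after MnDps. Cpt1a, Acads and Acaa1a kept their call in all 19 alternatives. Etfa, Etfb, Echs1 and Eci1 lost it with the correction for transcript length and GC content and kept it in the other 18. Acadvl kept it in 9.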

How the results depend on the processing

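Of 95 results for single genes, 95 kept their direction and side of the threshold with DESeq2 and with a stricter count filter, 94 with other size factors and 94 with limma voom, 86 with no filter, 82 in fits of only the groups compared and 76 with a term for deep libraries. The length and GC correction kept 50, weakened 37 and reversed 8. Reversed values were -0.05 for Cpt1a (Dps at 4 h), -0.06 for Acads, -0.15 for Echs1 and -0.04 for Ech1 (MnDps at 4 h), -0.05 for Eci1 (Dps at 24 h), and -0.13 for Etfa, -0.01 for Echs1 and -0.02 for Ech1 (MnDps against Dps at 4 h). With it, members called numbered 5 for Dps at 4 h, 8 for MnDps at 4 h, 7 for MnDps against Dps at 4 h, 9 for MnDps over time and 4 for the interaction. For Dps at 4 h, 2 members were called with no filter, a stricter filter, DESeq2, limma voom or only the groups compared. MnDps against Dps at 24 h gave 3 with DESeq2, limma voom or only the groups compared. MnDps at 24 h gave 3 with the depth term, MnDps over time 8 in a fit of its 2 groups, and the interaction 13 with limma voom. For the interaction over all genes, limma voom called 2316 higher and 2622 lower, and edgeR 2034 and 2334. Leaving out each library in turn gave 1 to 2 calls for Dps at 4 h, 11 to 15 for MnDps at 4 h, 7 to 13 for Dps at 24 h, 0 to 5 for MnDps at 24 h, 14 to 16 for MnDps against Dps at 4 h, 0 at 24 h, 11 to 15 for Dps over time, 4 to 14 for MnDps over time and 7 to 10 for the interaction. Calls over all genes changed in such fits as well, as given above for both agents at 24 h and for MnDps over time. Of 587 leave-one-out results for single genes, 472 held, 114 weakened and 1 reversed, Cpt1a with Dps at 4 h, which ran from -0.00 to 0.15. Beyond fewer libraries or fewer genes tested, the cause was not tested. No paired analysis was possible because the labels give no replicate numbers. The lowest count of a member was 362. The depth term weakened 19 of the 95 results, and its cause was not tested. The 2 libraries of MnDps at 24 h and the length trend also limit what can be said.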
